A study of Homo sapiens with 4 samples.

Results

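The genes described here are 10 enzymes of glycolysis and lactate formation: the hexokinases HK1 and HK2, the phosphofructokinases PFKP, PFKM and PFKL, GAPDH, PGK1, PGAM1, and the lactate dehydrogenases LDHA and LDHB. They were found by gene symbol among the named probe sets, and the question put to them was whether a difference at PGAM1 is shared by neighbouring steps. The PGAM1 difference was already known when the genes were chosen. Of the 10 genes, 7 were measured, with 1 probe set each, among 14884 genes with a named probe set. PFKP, PFKM and PFKL had no named probe set and were not measured, so the phosphofructokinase step is missing from what follows.

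Expression was measured on 4 Affymetrix arrays of MDA-MB-231Br cells, brain-seeking breast cancer cells derived from MDA-MB-231. The sample titles name that parent line, while the cell line field names MDA-MB-231Br. There were 2 arrays of cells carrying the control hairpin (shControl) and 2 of cells carrying a hairpin against YTHDF3 (shYTHDF3), a cytoplasmic reader of N6-methyladenosine on RNA. Both groups had been transduced with lentivirus and selected with puromycin. The labels do not say how many hairpin sequences or clones were used, nor whether the arrays of 1 group stem from different cultures. The p-values below therefore reflect the spread among these arrays, which may be technical. No probe set was named YTHDF3, so the level of the targeted gene was not analysed here and does not check the labels.

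Glycolysis splits glucose into pyruvate in the cytosol. Hexokinase traps glucose as glucose 6-phosphate and phosphofructokinase commits it to the pathway. GAPDH and PGK1 then make NADH and ATP, and phosphoglycerate mutase (PGAM1) moves the phosphate of 3-phosphoglycerate so that enolase and pyruvate kinase can finish. Lactate dehydrogenase turns pyruvate into lactate and regenerates NAD+. Tumour cells often run this route at a high rate even with oxygen present, and HIF-1 and MYC are known activators of many of its genes.

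Values are log2 expression as deposited, and differences are shYTHDF3 minus shControl with the standard error (SE) from limma. A gene was called at an adjusted p under 0.05 over the 12755 genes tested. At that threshold 0 of the 7 measured genes were called higher and 0 lower by limma, where 0.753% of all genes tested were called, 0.0862% as higher and 0.666% as lower. At an unadjusted p under 0.05, PGAM1 and HK1 passed, or 2 of 7, where 14.7% of all genes tested did. The median difference of the 7 was 0.080, against 0.0040 over all genes tested. All 7 lay above the filter on low values (2.54), and the lowest, GAPDH and LDHA, stood at the 80.8 and 80.9 percentile of all probe sets. GAPDH and LDHA averaged 5.84 and 5.81 in control arrays, and the highest value on the 4 arrays was 14.0. The level of a probe set depends on its own probes, so levels are not set against each other between genes. How fully the probe sets of GAPDH and LDHA follow a change in RNA was not tested. Both enter the mean that PGAM1 is set against below.

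PGAM1 had the largest difference of the 7. Its control arrays read 5.72 and 6.37 and its shYTHDF3 arrays 7.03 and 6.87. Both knockdown arrays were higher than both control arrays, and the first control array was the lowest. The means were 6.04 ± 0.46 (SD, n = 2) and 6.95 ± 0.11 (SD, n = 2), a difference of 0.91 (SE 0.21, 95% interval 0.40 to 1.41) or 1.87-fold. It ranked 16 among the 12755 genes when ordered from the most positive difference, but the adjusted p from limma was 0.13. The spread between its control arrays was wide: 1.97% of genes tested had an SD between the controls at least as large, and the median SD was 0.11. Without shControl replicate 1 the difference was 0.58, and without shControl replicate 2 it was 1.23. With an intensity trend in limma's variance model the adjusted p was 0.040, and over all alternatives it ran from 0.040 to 0.41.

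By its identifier, the probe set named PGAM1 fell among probe sets of another chromosome. Identifiers of the named probe sets follow genome order, and the nearest to it on either side were those of GLT8D2 and CKAP4. RefSeq places both on another chromosome than PGAM1. None of the 20 nearest named probe sets shared a chromosome with PGAM1 (0 of 20), while for HK1, HK2, GAPDH, PGK1, LDHA and LDHB 20 of 20 did. Over all named probe sets whose neighbours shared a chromosome, 49 of 15784 (0.31%) were assigned a gene of another chromosome. PGAM1 has many processed copies in the genome. Which of its sequences this probe set reads was not tested, so the PGAM1 values are those of a probe set named PGAM1.

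The other mutase genes were measured by probe sets among neighbours of their own chromosomes. PGAM4, a near-identical retrocopy of PGAM1, read 6.28 and 6.14 in control and 6.83 and 6.54 in shYTHDF3 arrays. The groups did not overlap, with a difference of 0.48 (SE 0.15, adjusted p = 0.22 from limma). Whether the probe sets named PGAM1 and PGAM4 read separate transcripts was not tested, so the pair may not be separate measurements. PGAM1 minus PGAM4 within an array shifted by 0.43, with overlapping groups. PGAM2, the muscle mutase, read 4.32 and 4.02 in control and 3.93 and 4.31 in shYTHDF3 arrays, where the groups overlapped (difference -0.05, SE 0.18).

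**Figure D1:**
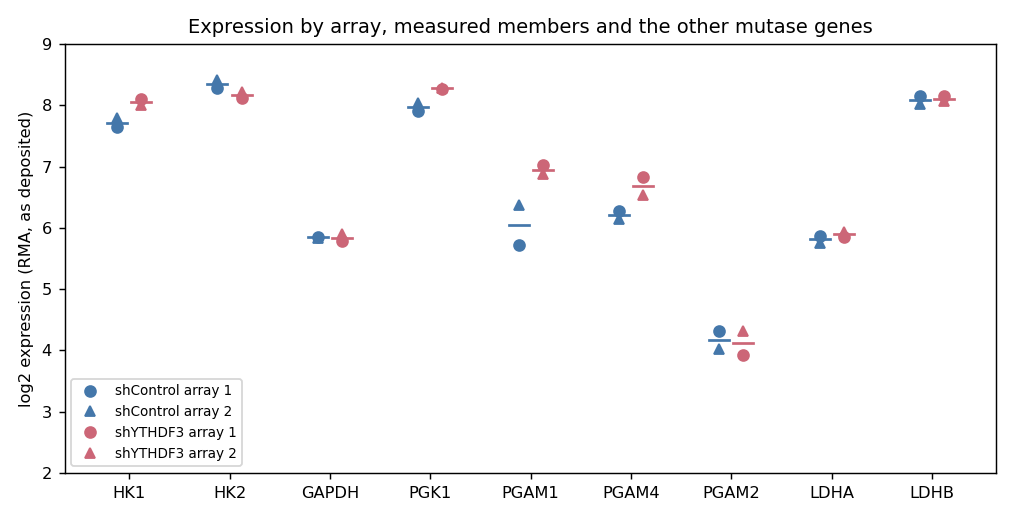
Log2 expression (y axis) of the 7 measured genes and of PGAM4 and PGAM2 (x axis), with 1 point per array and a line at each group mean of 2 arrays. PGAM1 has the widest gap between groups and the widest gap between its control arrays, 5.72 and 6.37, while GAPDH, LDHA and LDHB overlap.

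The enzymes of the steps just before PGAM1 were GAPDH, whose groups overlapped, and PGK1, whose groups did not. GAPDH, which oxidises glyceraldehyde 3-phosphate, read 5.86 and 5.83 in control and 5.78 and 5.90 in shYTHDF3 arrays. The knockdown arrays lay on both sides of the controls, and the difference was -0.002 (SE 0.13, 95% interval -0.30 to 0.30). PGK1, which makes ATP from 1,3-bisphosphoglycerate, read 7.91 and 8.04 in control and 8.26 and 8.29 in shYTHDF3 arrays. Both knockdown arrays were above both controls. The difference was 0.30 (SE 0.13, 95% interval -0.0012 to 0.61), with an unadjusted p of 0.051 and an adjusted p of 0.34 from limma.

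The lactate dehydrogenase subunits differed between the groups by less than their SE. LDHA, the subunit that dominates in glycolytic tissue, read 5.87 and 5.75 in control and 5.85 and 5.93 in shYTHDF3 arrays, a difference of 0.08 (SE 0.13, 95% interval -0.22 to 0.38). LDHB, the subunit that dominates in heart, read 8.16 and 8.02 in control and 8.15 and 8.06 in shYTHDF3 arrays, a difference of 0.02 (SE 0.13, 95% interval -0.29 to 0.33). The groups overlapped for both. LDHA minus LDHB within an array differed between groups by 0.06, with an exact permutation p of 1.0 (2-sided).

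The hexokinases had differences of opposite sign, and neither was called. HK1, the broadly expressed isoenzyme, read 7.65 and 7.78 in control and 8.10 and 8.00 in shYTHDF3 arrays. HK2, the isoenzyme induced in many tumours, read 8.28 and 8.41 in control and 8.12 and 8.22 in shYTHDF3 arrays. Knockdown arrays were all above the controls for HK1 and all below them for HK2. The differences were 0.33 (SE 0.13, adjusted p = 0.31 from limma) and -0.17 (SE 0.13, adjusted p = 0.59 from limma). HK2 minus HK1 within an array was 0.63 and 0.63 in control and 0.021 and 0.22 in shYTHDF3 arrays, a shift of -0.51 with an exact permutation p of 0.33 (2-sided). That is the smallest p that 2 arrays against 2 can give.

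In all, 3 of the 7 genes (HK1, PGK1 and PGAM1) had non-overlapping arrays that were higher in the knockdown, and 1 (HK2) had non-overlapping arrays that were lower. Together these are 4 of 7. Over all genes tested 45.5% did not overlap, 22.6% higher and 22.8% lower in the knockdown. With 2 arrays a group such separation is frequent.

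**Figure D2:**
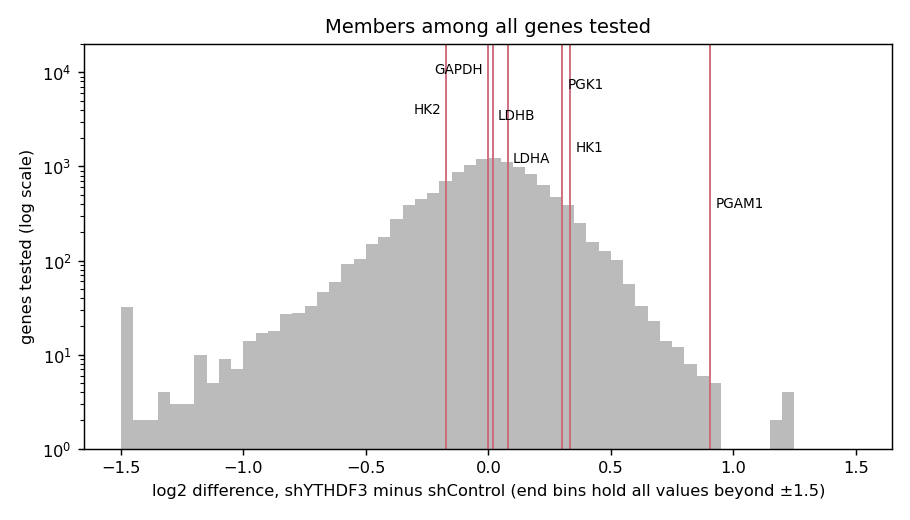
Histogram of the log2 differences of all 12755 genes tested (x axis, end bins hold all values beyond the axis; y axis, number of genes on a log scale), with a vertical line at each of the 7 measured genes. PGAM1 at 0.91 lies in the upper tail, and the other 6 lie between -0.17 and 0.33.

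The PGAM1 value was then set against the other steps within each array. PGAM1 minus the mean of GAPDH, PGK1, LDHA and LDHB was -1.23 and -0.54 in the control arrays and 0.016 and -0.17 in the shYTHDF3 arrays. The shift was 0.81 with an exact permutation p of 0.33 (2-sided), again the smallest possible. It was 0.46 without shControl replicate 1, and the p was 0.67 without either shYTHDF3 array. Most of the shift is the PGAM1 difference for which the question was put, so it describes that difference and is no further support for it. The mean of those 4 genes itself differed by 0.10, from 6.95 and 6.91 to 7.01 and 7.04. Against single genes the shift of PGAM1 ran from 0.57 (against HK1) to 1.08 (against HK2). Each of these 6 comparisons had an exact permutation p of 0.33, which stays 0.33 after adjustment over the 6. The 95% interval of the PGAM1 difference itself (0.40 to 1.41) overlapped those of HK1 and PGK1, which reached 0.64 and 0.61. With PGAM4 in place of PGAM1 the shift against the mean of the 4 genes was 0.38.

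**Figure D3:**
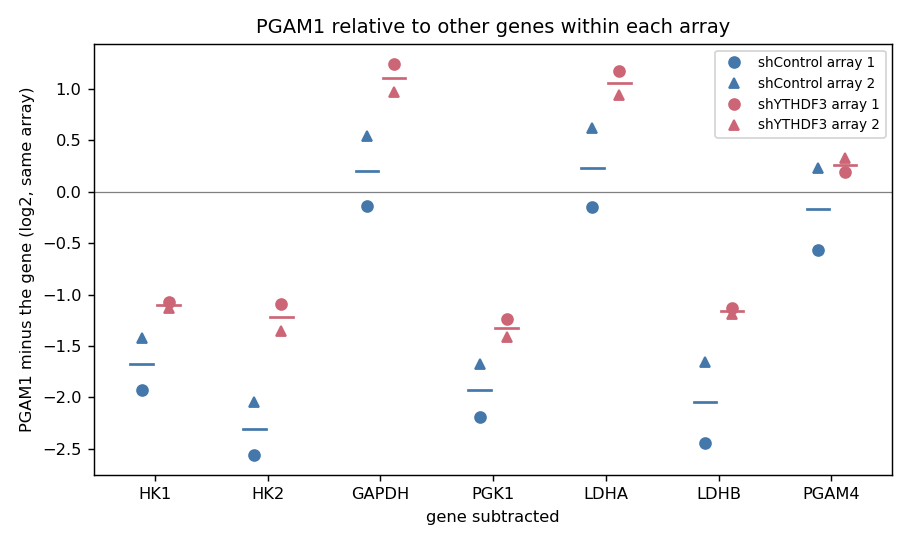
PGAM1 minus each other gene on the same array (y axis, log2), with 1 point per array and a line at each group mean of 2 arrays. The knockdown arrays lie above the control arrays against each of the 6 other measured genes, and in the comparison with PGAM4 the first knockdown array (0.19) lies below the second control array (0.23).

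The remaining enzymes of glycolysis gave no called gene. Of 24 listed, 9 were tested by limma, 0 were called in either direction, 2 had an unadjusted p under 0.05 and the median difference was -0.09. The largest difference in absolute size was that of LDHD, ahead of PGAM4. LDHD, the mitochondrial D-lactate dehydrogenase, read 4.40 and 4.40 in control and 4.01 and 3.75 in shYTHDF3 arrays (difference -0.52, SE 0.14, adjusted p = 0.17 from limma). GPI, which isomerises glucose 6-phosphate, stood at 0.13 and TPI1, triosephosphate isomerase, at -0.13. Their probe sets read differently: GPI averaged 9.76 in control arrays and TPI1 only 3.90, at the 61.6 percentile of all probe sets. ENO1, ENO2 and ENO3, the enolases that follow PGAM1, and BPGM, ALDOA and PKM had no named probe set. The glucose transporter list had 0 of 12 genes with a named probe set. The bifunctional PFKFB enzymes had none either, and TIGAR, a fructose bisphosphatase of the same control point, stood at -0.19.

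Genes that handle the products of the pathway also had none past the threshold. BSG and EMB, the chaperones of the lactate transporters, stood at -0.13 and 0.29. Of 9 tested genes of pyruvate entry into mitochondria 0 were called by limma and 1 had an unadjusted p under 0.05. That was MPC2, a subunit of the mitochondrial pyruvate carrier, at 0.32 (adjusted p = 0.32 from limma). DLAT, the acetyltransferase of pyruvate dehydrogenase, stood at 0.18. Of 8 tested pentose phosphate genes 0 were called and 0 had an unadjusted p under 0.05, with RPE at -0.50 and the transaldolase TALDO1 at -0.25. RPE read 3.66 on the second knockdown array and 4.57 to 4.77 on the other 3. The NADH shuttle enzyme GPD2 stood at 0.38 (unadjusted p = 0.022, adjusted p = 0.25 from limma) and GPD1 at 0.16, with 0 of 3 tested genes called. Of 7 tested glycogen genes 0 were called and 0 had an unadjusted p under 0.05, with the phosphoglucomutases PGM1 and PGM2 at -0.20 and 0.23.

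The branch that draws on 3-phosphoglycerate, the substrate of PGAM1, leads to serine. All 5 of its genes were tested, 0 were called by limma, and 4 had an unadjusted p under 0.05, where 14.7% of all genes tested did. These were PHGDH, PSAT1 and SHMT2, which were lower in the knockdown, and SHMT1, which was higher. PHGDH, the first enzyme of the branch, read 7.12 and 7.34 in control and 6.62 and 6.99 in shYTHDF3 arrays (difference -0.42, SE 0.17, adjusted p = 0.31 from limma). PSAT1, the second, read 11.5 and 11.5 in control and 11.0 and 11.1 in shYTHDF3 arrays (difference -0.44, SE 0.13, adjusted p = 0.18 from limma). PSPH stood at -0.28 (unadjusted p = 0.060 from limma) and the mitochondrial SHMT2 at -0.36. The cytosolic SHMT1 stood at 0.52 (SE 0.13, adjusted p = 0.15 from limma), the largest absolute difference of the 5. For 4 of the 5 both knockdown arrays were below both controls, and for SHMT1 they were above, where 22.8% and 22.6% of all genes tested were so placed. The median difference was -0.36. PCK2, which makes phosphoenolpyruvate in mitochondria, read 6.49 and 6.69 in control and 5.79 and 5.83 in shYTHDF3 arrays, a difference of -0.78 (adjusted p = 0.062 from limma). PC, pyruvate carboxylase, stood at -0.11, and neither of these 2 tested gluconeogenesis genes was called.

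**Figure D4:**
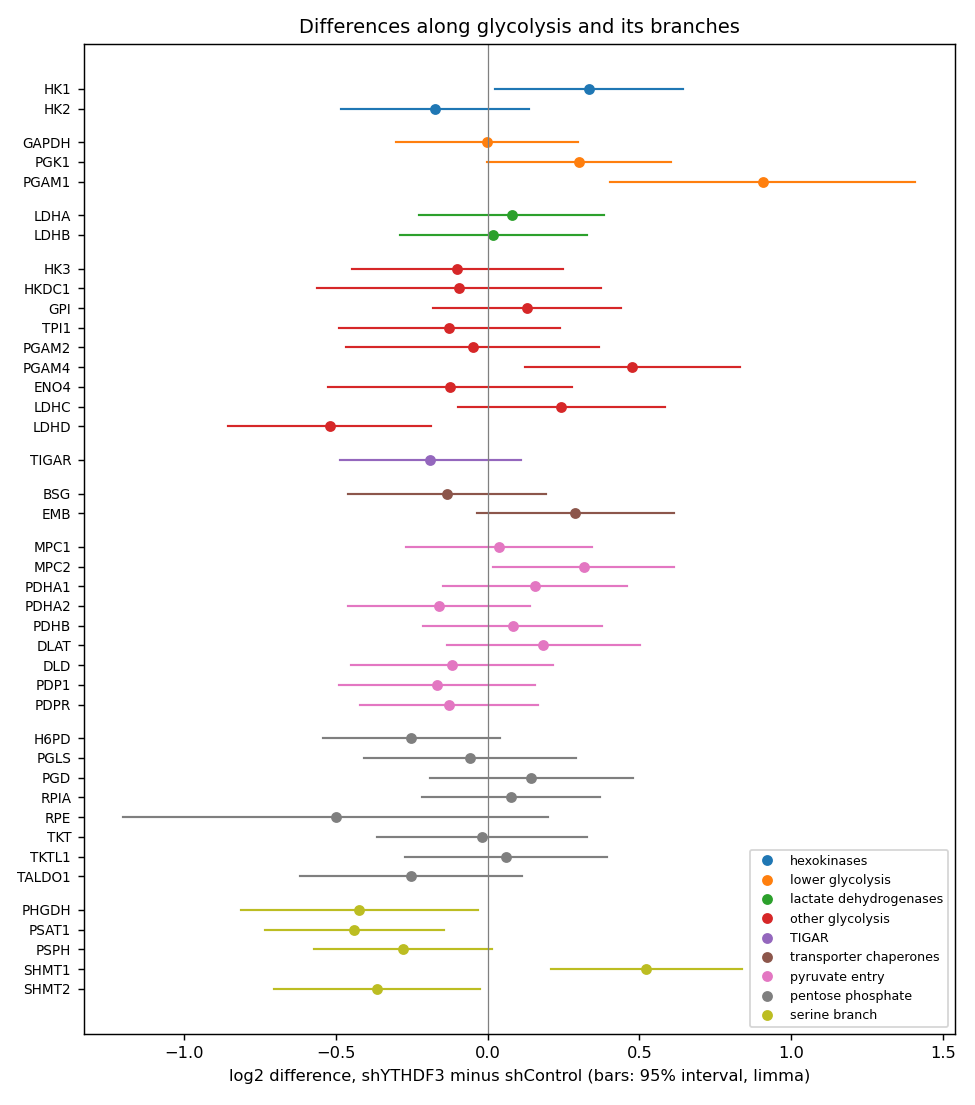
Log2 difference of each tested gene (points, x axis) with its 95% interval from limma (bars), grouped along glycolysis and its branches (y axis, colours). The PGAM1 interval of 0.40 to 1.41 lies to the right of zero. For 4 of the 5 genes of the serine branch the point lies to the left of zero, and the PSPH interval crosses zero. The SHMT1 interval of 0.21 to 0.84 lies to the right of it.

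Among the activators of glycolytic genes, MYC read 9.88 and 10.0 in control and 9.21 and 9.44 in shYTHDF3 arrays, a difference of -0.63 (SE 0.14, adjusted p = 0.12 from limma). Of 9 tested regulators 0 were called by limma and 1, MYC, had an unadjusted p under 0.05. ARRDC4, a relative of TXNIP, stood at -0.32. TXNIP itself stood at 0.18 with overlapping groups, and it was the only 1 of the 9 with a positive difference. HIF1A had no named probe set. Of 10 tested HIF targets outside glycolysis 1 was called (0.753% of all genes tested) and 5 had an unadjusted p under 0.05 (14.7% of all genes tested). Of these 5, VEGFA, ANKRD37, NDRG1 and LOX were lower in the knockdown and CA12 was higher, at 0.38 (adjusted p = 0.32 from limma). In the whole list 3 of the 10 had a positive difference. VEGFA, a growth factor for blood vessels, read 6.76 and 6.85 in control and 5.73 and 5.76 in shYTHDF3 arrays and fell by 1.06 (SE 0.13, adjusted p = 0.018 from limma). ANKRD37 stood at -0.81 with an adjusted p of 0.062, and the list's median was -0.18. Among the glycolytic genes known as HIF targets, LDHA and PGK1 stood at 0.08 and 0.30, and HK2 and GAPDH at -0.17 and -0.002.

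The promoters of PGK1 and LDHA are shown because both genes are textbook targets of HIF-1 and MYC. Each sequence is the 250 bases before the RefSeq start site on GRCh38.p14, plus strand. The letters ACGTG, a core of the hypoxia response element, are in capitals on either strand. GCGTG, the other form of that core, is not marked. Where CACGTG, the E-box that MYC binds, occurs, the capitals cover it whole, since it holds ACGTG on both strands. The PGK1 window is chrX:78103998-78104247 and the LDHA window chr11:18394313-18394562.
PGK1: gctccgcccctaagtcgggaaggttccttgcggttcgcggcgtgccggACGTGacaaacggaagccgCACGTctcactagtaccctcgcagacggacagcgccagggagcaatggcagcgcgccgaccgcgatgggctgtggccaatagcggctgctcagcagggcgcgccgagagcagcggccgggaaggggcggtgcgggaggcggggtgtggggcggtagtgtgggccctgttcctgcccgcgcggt
LDHA: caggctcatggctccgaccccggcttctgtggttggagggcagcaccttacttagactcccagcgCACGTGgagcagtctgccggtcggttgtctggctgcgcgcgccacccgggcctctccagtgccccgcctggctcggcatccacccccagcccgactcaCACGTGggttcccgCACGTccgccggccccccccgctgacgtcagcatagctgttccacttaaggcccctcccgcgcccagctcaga
The PGK1 window held 2 separate matches and no CACGTG. The LDHA window held 3, of which 2 were CACGTG, and the second LDHA start site had 0. Of all 35116 RefSeq promoter windows of this length 18.5% held ACGTG and 6.34% CACGTG. HK2 had ACGTG in 2 of 2 windows, GAPDH in 1 of 1, PGAM1 and LDHB in 0 of 1 each, and HK1 in 0 of 7. Of the genes that were not measured, PFKP had it in 1 of 4, PFKM in 1 of 7 and PFKL in 0 of 1. The unmarked GCGTG was in 32.2% of all windows. It occurred 1 time in the PGK1 window, 0 times in the LDHA window shown and 1 time at the second LDHA start site. HK2, HK1, PFKP and PFKL also had windows with GCGTG. The letters say only what these windows contain, and binding was not measured.

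The genes whose 4 values, centred on their mean, lay nearest to those of PGAM1 were PMCH, ADAMTS7P1, MIR4462, MIR328 and SOCS3, at Euclidean distances of 0.11 to 0.25 on the log2 scale over 4 arrays. SOCS3, a feedback inhibitor of cytokine signalling, read 5.72 and 6.06 in control and 6.77 and 6.59 in shYTHDF3 arrays. Each of the 5 had the first control array as its lowest and the first knockdown array as its highest. PGAM1 has the same order, and the 5 were chosen for likeness to it, so the order is no separate result. None of the 5 was a glycolytic gene.

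The labelled cell line was set against cell type markers. Of 6 tested mesenchymal and basal markers VIM and CD44 stood at 9.85 and 8.12 in the control arrays, and 0 were called by limma (1 at an unadjusted p under 0.05). ZEB1, a repressor of epithelial genes, had the largest difference at -0.47 (unadjusted p = 0.021, adjusted p = 0.25 from limma). The receptor kinase AXL stood at -0.18, EGFR and MSN at -0.16 each, and CD44 at 0.17. ESR1 and PGR stood at 2.84 and 2.66, near the filter value. EPCAM stood at 6.70 and KRT18 at 8.45, and of the 7 tested luminal and epithelial markers 0 were called (1 at an unadjusted p under 0.05, KRT18 at 0.50). By identifier the KRT18 probe set lies near that of GPD1L. Whether its neighbours share a chromosome with KRT18 was not checked, and which sequence it reads was not tested. KRT19 stood at -0.40, with both knockdown arrays below both controls. CD14, PECAM1 and VWF stood between 2.63 and 3.08 in control arrays. CD68, a lysosomal protein, stood at 10.7, and PTPRC had no named probe set. Of these 4 tested leukocyte and stromal markers 0 were called, with 1 at an unadjusted p under 0.05 (VWF at -0.34, with CD14 at -0.20). Of 5 tested neural and glial markers 0 were called, with 0 at an unadjusted p under 0.05 and AQP4 and OLIG2 at 0.20 and 0.19. The part of these markers in the results was not tested. Fewer cells of a type and less RNA per cell cannot be told apart in bulk RNA.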

How the data were processed

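The authors deposited 1 table of log2 expression, with arrays as columns and probe sets as rows. The submitters' processing notes name RMA. Its version and settings, and the genome build, are not stated in the labels. RMA sets the arrays to a common distribution, which takes out array-wide shifts and compresses weak signals. The 4 medians ran from 3.20 to 3.22. Precision is limited by having 2 arrays a group.

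Of 53617 probe sets 16098 had a gene symbol in the platform annotation, and all 16098 matched RefSeq (GRCh38.p14) by Entrez identifier. For each gene the probe set of highest mean was kept. Of these genes, 12755 passed a filter (mean at or above the 30th percentile of all rows) and were tested with limma 3.58.1 in R 4.3.3 (2-sided, Benjamini-Hochberg, no covariates). The scripts were tested on simulated data. Exact permutation tests over the 4 arrays cannot give a p below 0.33. Same-numbered arrays deviated together with a correlation of 0.043 and were not treated as pairs.

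The members, lists and tests were chosen with earlier results of these data known. Named genes were every measured member, from each list the genes called and the 2 of largest absolute difference, the other mutase genes, the enzymes next to PGAM1, and the 5 genes nearest in pattern to PGAM1. GPI, TPI1, PSPH, SHMT2, TXNIP, CA12, NDRG1, LOX, GPD1L, EPCAM, VIM, CD44, EGFR, MSN, ESR1, PGR, CD68 and PECAM1 are named outside that rule.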

Additional observations from a re-analysis of the deposited data

How the results depend on the processing

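Over all genes tested, limma called 96 genes. The count was 167 with a filter at the 50th percentile, 375 with an intensity trend, 250 at a threshold of 0.10 and 11 with the replicate number as a block. It ran from 0 to 36 with 1 array left out, and was 0 without either control array, where 1375 and 1389 genes passed unadjusted. The block called 0 members, and its numbers are not known to pair the arrays. The count of members called was 0 under each alternative run except the intensity trend, where it was 1, PGAM1, with a difference of 0.91 and an adjusted p of 0.040. The PGAM1 difference ran from 0.58 to 1.23 with 1 array left out, which cannot reverse a gene whose groups do not overlap. It was 0.93 with quantile normalization, 0.94 with median centring and 0.91 with cyclic loess. The filters, the averaging of probe sets and the changes to limma's model cannot alter the difference of a gene with 1 probe set. The median of the 7 genes was 0.080 and ran from 0.021 to 0.14 with 1 array left out. With PGAM4 in place of PGAM1 the shift against the neighbours was 0.38. PGAM1 minus its neighbours was 0.81 with quantile normalization and with cyclic loess, and reached 1.15 with 1 array left out. Leaving out 1 array cannot reverse it, since its groups do not overlap, and median centring and averaging of probe sets cannot change it. It was 0.46 without shControl replicate 1, and its permutation p was 0.67 without either shYTHDF3 array. The use of PGAM4 in place of PGAM1, and the median without PGAM1 (0.050), were chosen after seeing the data. GAPDH turned from -0.002 to 0.035 with quantile normalization, 0.032 with median centring and 0.0053 with cyclic loess, and ran from -0.058 to 0.055 with 1 array left out. LDHB ran from -0.049 to 0.088 with 1 array left out. The cause was not tested. HK1, HK2, PGK1 and LDHA kept their direction. For HK1, HK2 and PGK1, whose groups do not overlap, only quantile normalization, median centring and cyclic loess could have reversed it. LDHA, whose groups overlap, ran from 0.021 to 0.14 with 1 array left out.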
